A study of Mus musculus with 38 samples.

Results

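Cortical oligodendrocytes were studied here as nuclei from the cortex of mice that lost Trim28 in the dorsal forebrain during development. Members were chosen by a marker rule from 4 single-nucleus matrices: a nucleus was an oligodendrocyte when its molecules (unique molecular identifiers, UMIs, each standing for 1 captured transcript) of Mog, Mag, St18 and Prr5l summed to at least 3 and exceeded the marker sum of every other class. The other classes were excitatory neurons, inhibitory neurons, astrocytes, oligodendrocyte progenitors and microglia, each with its own marker sum. The rule found 1581 oligodendrocytes among 14296 nuclei, and the matrices held 27998 genes. In KO animal 60 there were 313 members, in KO animal 73 there were 284, in control animal 64 there were 609 and in control animal 65 there were 375.

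Oligodendrocytes wrap axons in myelin, a lipid-rich sheath that speeds nerve conduction, and they store iron and make large amounts of cholesterol to build it. They arise from oligodendrocyte progenitors, and in the dorsal cortex many of these descend from the Emx1-expressing progenitors that also give excitatory neurons and astrocytes. Trim28 is a co-repressor that zinc finger proteins bring to DNA, where it recruits the machinery for the repressive histone mark H3K9me3. It is best known for silencing endogenous retroviruses, the remains of ancient retroviral insertions that end in long terminal repeats.

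The comparison asked which transcripts differed in oligodendrocytes of KO animals. KO animals (60 and 73) were Emx1-Cre(+/-);Trim28-flox(+/+), and controls (64 and 65) were Emx1-Cre(+/-);Trim28-flox(+/-), so controls carried Cre as well and lost 1 allele of Trim28 in the same lineage. That genotype of the controls is the one in the labels and methods, although a figure legend of the study calls cortex controls Cre-negative. All animals were 3 months old. Emx1-Cre acts in progenitors of the dorsal forebrain, so microglia and most inhibitory neurons keep Trim28, and oligodendrocytes from other sources keep it too. Each matrix was 1 animal, giving 2 animals a group, and nuclei of 1 animal are not replicates. Whole cortex RNA of 3 KO animals (60, 73 and 76) and 3 controls (64, 65 and 77) gave a second readout, in which animals 76 and 77 were not among the nuclei.

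The members held 880174 and 840944 UMIs in KO 60 and KO 73, and 1937858 and 1162710 in control 64 and control 65. A member held a median of 2009 and 2216.5 UMIs in the KO animals and 2486 and 2473 in the controls. Microglia were shallower in the KO animals as well, with medians of 1495 and 1606 UMIs against 1991 and 1793. No barcode was shared between members of 2 animals, and 0 to 20 barcodes were shared between any 2 whole matrices. Doublets were not called: 31.3% and 33.5% of members in the KO animals and 29.6% and 34.9% in the controls held at least 1 UMI of another class's rule markers, and counts without these nuclei are given where they matter.

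The label was checked with 15 oligodendrocyte markers that the rule did not use. Of these, 14 had their highest level in the oligodendrocytes, measured as CPM, counts of a gene per 1000000 counts of the class or library. Mbp, which compacts the myelin sheath, stood at 3235 and 3581 CPM in KO 60 and KO 73 and at 3175 and 3318 in control 64 and control 65. The exception was Sox10, a transcription factor of the whole lineage, which was higher in progenitors in 3 of the 4 animals. Of the values just inside the rule, 1, 0, 1 and 3 nuclei in KO 60, KO 73, control 64 and control 65 had a marker sum of exactly 3, and 4, 6, 15 and 8 nuclei had a sum of 1 less that was still their highest. The median marker sum of members was 15 and 17 in the KO animals and 22 and 21 in the controls.

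Oligodendrocytes were a smaller part of the KO nuclei. They made up 8.24% of nuclei in KO 60 (exact binomial 95% interval 7.38 to 9.16) and 7.34% in KO 73 (6.53 to 8.20), against 17.4% in control 64 (16.2 to 18.7) and 11.98% in control 65 (10.9 to 13.2). Both KO values lay below both controls, and the controls differed between themselves by more than the KO animals did. The means were 7.79% ± 0.638 and 14.7% ± 3.85 (SD, n = 2 per group), a difference of -6.91 percentage points. An exact two-sided permutation test gave p = 0.333, the smallest value that 2 against 2 animals allow, so the difference could not pass a threshold whatever its size. The intervals cover counting error only, and the nuclei captured are not a count of cells in the cortex. Excitatory neurons made up 38.7% and 39.5% of nuclei in KO 60 and KO 73 and 28.2% and 31.2% in control 64 and control 65. The study, which clustered these nuclei, reported no major difference between the genotypes in the proportions of its clusters.

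The lower share held against each other glial class. There were 0.915 and 0.858 oligodendrocytes for each astrocyte in the KO animals and 1.91 and 1.72 in the controls. The ratio to progenitors was 2.65 and 2.37 against 4.87 and 4.41, and the ratio to microglia was 1.61 and 1.22 against 2.72 and 2.09. None of these ratios overlapped between the groups. With a marker sum of at least 5 the difference in share was -6.90 points, and among nuclei within 3 median absolute deviations of the median number of detected genes, the limit that the study's methods name, it was -8.55 points. That limit left 264 and 194 members in the KO animals and 608 and 367 in the controls. Depth per nucleus was lower in the KO animals and the rule counts UMIs, and the part of depth in the share was not tested. In whole cortex RNA, with 3 animals a group, edgeR did not call the rule markers or Cnp. The log2 fold change was -0.26 ± 0.09 for Mog (adjusted p 0.336), -0.23 ± 0.14 for Mag (0.776) and -0.30 ± 0.16 for St18 (0.692). It was -0.62 ± 0.17 for Prr5l (0.153) and -0.10 ± 0.10 for Cnp (0.941). All KO libraries lay below all controls for Mog and Prr5l, and the groups overlapped for Mag, St18 and Cnp.

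**Figure D1:**
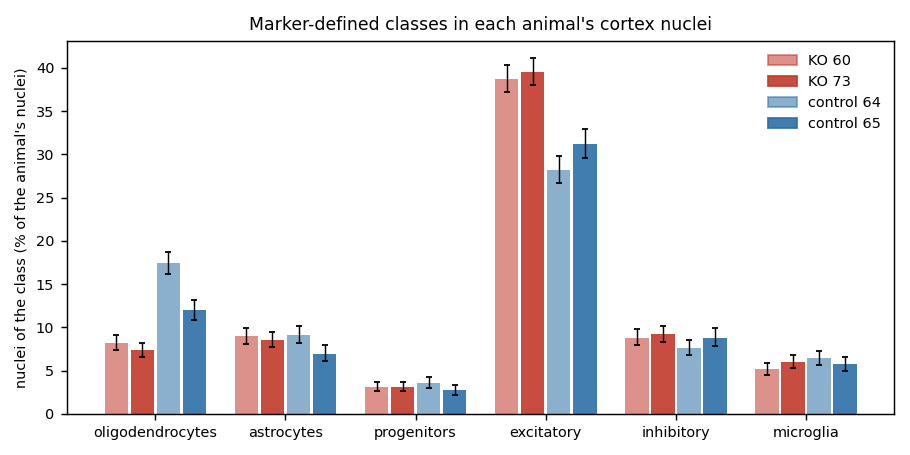
Share of each animal's nuclei (%, y axis) in the 6 marker-defined classes (x axis), 1 bar per animal with its exact binomial 95% interval. Oligodendrocytes made up 8.24% and 7.34% of nuclei in the KO animals and 17.4% and 11.98% in the controls, while astrocytes made up 9.00% and 8.55% against 9.12% and 6.96%.

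Trim28 itself could not be judged in these nuclei. The oligodendrocytes held 11 and 8 Trim28 UMIs in KO 60 and KO 73 and 11 and 10 in control 64 and control 65, too few to enter the test. The reads come from the ends of transcripts and do not show whether the floxed exons were lost. In whole cortex RNA of the same animals and 1 more pair, Trim28 (chr7:12999114-13031035, plus strand, GRCm38.p6) had 575, 349 and 482 reads in controls 64, 65 and 77 and 107, 165 and 112 in KO 60, 73 and 76. All KO libraries lay below all controls, with a log2 fold change of -1.39 ± 0.15 (SE) and an adjusted p of 0.000378.

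Summed per animal and tested across 9777 genes, 175 genes were higher (1.79% of those tested) and 112 were lower (1.15%) in KO oligodendrocytes. The test was edgeR's quasi-likelihood test with Benjamini-Hochberg adjustment, and a gene was called at an adjusted p under 0.05. The increases were the larger ones: the median log2 fold change was 1.44 among genes that rose and -1.06 among genes that fell, with 139 and 65 of them past 2-fold. In each of the 287 called genes both KO animals lay on the same side of both controls. Over all genes tested the KO animals lay above both controls in 22.2% and below both in 22.3%, so this order alone says little about a gene.

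The number of calls moved with the animals and the tool. Leaving out KO 60 gave 89 calls and leaving out control 64 gave 706, and without control 65 there were 509. DESeq2 called 73 of the 175 higher genes and 38 of the 112 lower genes. Of the higher genes 91, and of the lower genes 42, were also called in the members with no UMI of another class's rule markers. There were 43 higher and 13 lower genes that were called under all 11 alternatives.

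Most genes that changed in oligodendrocytes were not called in the other classes of the same animals. Many of them moved the same way there at an unadjusted p under 0.05. Of the 175 higher genes, 155 were tested in astrocytes with 22 higher and 1 lower, 103 in progenitors with 7 higher, and 168 in excitatory neurons with 57 higher and 3 lower. Their median log2 fold change was 0.61 in astrocytes, 0.51 in progenitors and 0.54 in excitatory neurons. At an unadjusted p under 0.05 in edgeR, 70, 40 and 114 were higher in these 3 classes and 2, 0 and 5 lower. In microglia and inhibitory neurons, which keep Trim28, edgeR called 0 of 113 and 0 of 150, with 21 and 56 higher at an unadjusted p under 0.05 and medians of 0.38 and 0.42. No second tool was run in those classes. Of the 112 lower genes, 4 of 84 fell in astrocytes, 1 of 72 in progenitors and 25 of 104 in excitatory neurons. At an unadjusted p under 0.05, 26, 16 and 53 were lower there and 1, 2 and 7 higher. In microglia and inhibitory neurons 0 of 58 and 0 of 93 were called, with 14 and 24 lower at an unadjusted p under 0.05. Over all genes there were 58 higher and 58 lower calls in astrocytes, 17 and 10 in progenitors and 644 and 634 in excitatory neurons. At an unadjusted p under 0.05 these were 650 and 643 of 10825 genes, 356 and 383 of 7214 and 2132 and 2071 of 15367. In microglia edgeR called 0 of all 7415 genes and in inhibitory neurons 0 of all 12267. The absence of calls in these 2 classes therefore says nothing about the genes that changed in oligodendrocytes. At an unadjusted p under 0.05, 255 genes were higher and 366 lower in microglia, and 900 and 811 in inhibitory neurons. The classes differ in nuclei and depth.

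**Figure D2:**
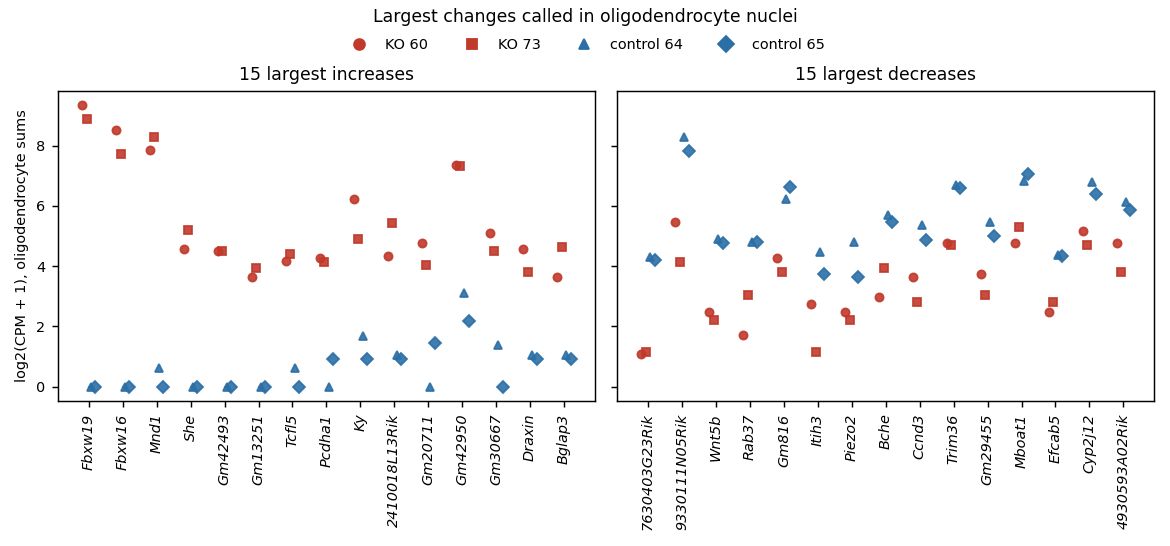
Log2(CPM + 1) of the 15 largest increases (left) and 15 largest decreases (right) among genes called in oligodendrocyte nuclei (x axis), 1 point per animal. Fbxw19, Fbxw16, She, Gm42493 and Gm13251 had 0 UMIs in both controls, while the falling genes kept UMIs in both KO animals.

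The largest increases were at a pair of neighbouring genes on chromosome 9, Fbxw19 and Fbxw16. They belong to a mouse cluster of F-box and WD-40 domain genes, a family of proteins that choose targets for ubiquitin ligases. Fbxw19 (chr9:109476654-109495875, minus strand) had 573 UMIs in KO 60 and 397 in KO 73 and 0 in both controls. Its level was 651 and 472 CPM in the KO animals, which is at least 265-fold over a floor of 3 UMIs per control library, with an adjusted p of 9.83e-12. Fbxw16 (chr9:109432316-109449140, minus strand) had 323 and 176 UMIs in KO 60 and KO 73 and 0 in both controls, at least 136-fold over the same floor, with an adjusted p of 9.22e-10. No UMI of either gene was seen in a control oligodendrocyte, and both genes were called under all 11 alternatives. Gm42493 (chr9:109448645-109460105, plus strand), which overlaps the start of Fbxw16 on the other strand, had 19 and 18 UMIs against 0 and 0, at least 10.1-fold (adjusted p 0.000101).

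The rest of the cluster was looked at after these values were seen. Fbxw15, the next gene along, had 33 and 19 UMIs in KO 60 and KO 73 and 53 and 27 in control 64 and control 65, and its normalised levels overlapped between the groups. The other F-box genes of the cluster had at most 1 UMI in any animal's oligodendrocytes. These genes are related copies of 1 family, and how reads were divided between Fbxw19, Fbxw16 and their neighbours was not tested.

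Mnd1 was the other gene that went from almost no UMIs to a high level. It encodes a partner in the strand exchange of meiotic recombination and is best known from germ cells. Mnd1 (chr3:84087933-84155786, minus strand) had 201 and 258 UMIs in KO 60 and KO 73, 1 in control 64 and 0 in control 65. The ratio of the summed levels was 796.97, with a 95% counting interval of 142 to 31547, and the adjusted p was 5.49e-11. It was called under all 11 alternatives.

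The sequences at the starts of these genes are shown because the Fbxw19 and Fbxw16 starts are alike and that of Mnd1 is of another kind. Each is 300 bases from RefSeq (GRCm38.p6), read 5′ to 3′ on the gene's own strand, from chr9:109495805-109496104, chr9:109449091-109449390 and chr3:84155737-84156036. In the first pair the capitals mark runs of at least 15 bases that both starts share, and in Mnd1 they mark the dinucleotide CG.
Fbxw19: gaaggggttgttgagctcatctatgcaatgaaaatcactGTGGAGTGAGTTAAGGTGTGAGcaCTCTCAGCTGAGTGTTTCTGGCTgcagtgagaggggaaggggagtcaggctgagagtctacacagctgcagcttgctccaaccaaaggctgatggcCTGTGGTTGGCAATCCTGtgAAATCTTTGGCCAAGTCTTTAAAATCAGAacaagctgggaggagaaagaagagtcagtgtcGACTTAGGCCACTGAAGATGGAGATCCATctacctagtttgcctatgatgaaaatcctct
Fbxw16: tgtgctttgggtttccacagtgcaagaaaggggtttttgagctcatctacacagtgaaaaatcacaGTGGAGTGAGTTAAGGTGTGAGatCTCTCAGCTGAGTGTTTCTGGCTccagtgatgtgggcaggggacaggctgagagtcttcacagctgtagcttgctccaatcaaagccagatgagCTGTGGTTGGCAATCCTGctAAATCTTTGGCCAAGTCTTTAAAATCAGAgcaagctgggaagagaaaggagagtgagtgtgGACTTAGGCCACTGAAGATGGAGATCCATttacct
Mnd1: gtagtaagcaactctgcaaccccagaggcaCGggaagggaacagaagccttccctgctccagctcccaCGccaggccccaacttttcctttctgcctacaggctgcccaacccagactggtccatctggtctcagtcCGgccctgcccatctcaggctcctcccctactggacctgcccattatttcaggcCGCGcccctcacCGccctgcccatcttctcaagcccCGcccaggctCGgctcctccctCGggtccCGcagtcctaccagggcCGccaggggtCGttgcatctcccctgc
The shared runs add up to 121 bases, and a local alignment of the pair had 245 identical bases in 275 columns, an identity of 89.1%. The Fbxw19 start held 1 CG and that of Fbxw16 held 0, and 14.1% and 5.43% of the 32851 RefSeq promoters of the same length hold as few. The Mnd1 start held 12, a number that 39.6% of promoters reach, against a median of 7. CG reads the same on both strands. The sequences were chosen after the values of these genes were seen, and 60 of the 100 genes that the naming rule gave have a promoter in the table.

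The increase was spread over many nuclei. Fbxw19 was detected in 58.5% of oligodendrocytes in KO 60 and 48.2% in KO 73, with up to 12 and 9 UMIs in a nucleus, and in 0 of 609 and 0 of 375 control nuclei, which allows shares of up to 0.493% and 0.800%. Fbxw16 was detected in 51.8% and 35.2%, and Mnd1 in 28.1% and 29.2% against 0.164% and 0 of 375. In microglia, which keep Trim28 and have a median of 1495 and 1606 UMIs in the KO animals, Fbxw19 was detected in 0 of 195 and 0 of 232 nuclei, which allows shares of up to 1.54% and 1.29%. With each nucleus thinned to 1000 UMIs, Fbxw19 was detected in 44.6% and 33.3%, Fbxw16 in 37.5% and 20.4% and Mnd1 in 61 of 307 and 53 of 279 KO oligodendrocytes. Thinning left out 6 and 5 KO members and 3 and 5 control members that were shallower.

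In the KO animals 68.4% and 62.0% of oligodendrocytes held a UMI of at least 1 of the 3 genes, and 57 and 32 nuclei held all 3. In thinned nuclei Fbxw16 was detected in 58.4% of nuclei with Fbxw19 and in 20.6% of those without it in KO 60, and in 37.6% and 11.8% in KO 73. Mnd1 was detected in 31.4% of nuclei with Fbxw19 and 10.6% of those without it in KO 60, and in 30.1% and 13.4% in KO 73. In both animals these shares were higher among nuclei with Fbxw19, a description of nuclei within an animal that carries no test.

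Across the classes of nuclei the Fbxw pair was highest in oligodendrocytes and second in astrocytes. In KO astrocytes Fbxw19 stood at 23.1 and 35.6 CPM, with an adjusted p of 0.00431 in that class, and 7.31% and 11.8% of KO astrocytes held it. Fbxw16 stood at 24.6 and 21.8 CPM in KO astrocytes (adjusted p 0.00472). Both genes had 0 UMIs in control astrocytes. In progenitors both had 0 UMIs in all 4 animals, and 0 of 118 and 0 of 120 KO progenitors allow shares of up to 2.54% and 2.50%. Excitatory neurons held 5 and 3 Fbxw19 UMIs in KO 60 and KO 73, and 0 and 1 in the controls, among 13825037 to 18611744 UMIs per animal. Against astrocytes, progenitors and microglia the difference in effect could not be estimated because the controls of both classes were at 0.

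Mnd1 was less confined. It stood at 228 and 307 CPM in KO oligodendrocytes, at 86.1 and 106 in KO astrocytes and at 14.1 and 16.4 in KO excitatory neurons, against 0.516 and 0, 1.43 and 4.31, and 2.17 and 1.37 in the controls. It rose in astrocytes by 5.15 (adjusted p 0.000146) and in excitatory neurons by 3.05 (adjusted p 0.00107) on the log2 scale. Progenitors had 10 and 4 UMIs in the KO animals and 0 in both controls. The NPC cultures of the series, neural progenitors in which Trim28 was disrupted with Cas9, showed a different pair of patterns. Fbxw19 ranged from 7.50 to 15.2 CPM with a median of 9.66 in 6 KO libraries, against 0 in both lacZ controls, while Mnd1 ranged from 0.534 to 3.45 against 1.02 and 2.54. In adult forebrain neurons that lost Trim28 after Cre delivery, Fbxw19 and Fbxw16 were at 0 in all 4 KO and all 4 control libraries.

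**Figure D3:**
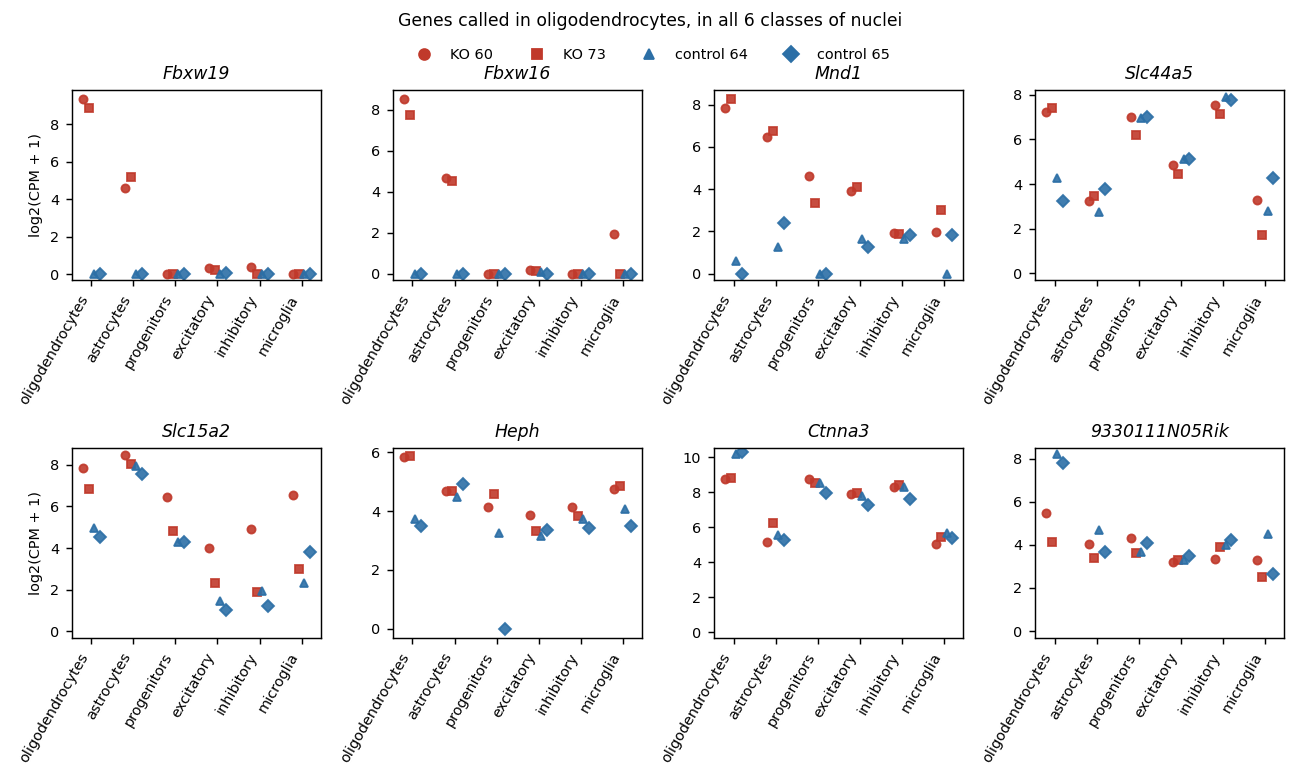
Log2(CPM + 1) of 8 genes called in oligodendrocytes (1 panel per gene) in the 6 classes of nuclei (x axis), 1 point per animal. Fbxw19 stood at 651 and 472 CPM in KO oligodendrocytes and at 23.1 and 35.6 in KO astrocytes, and Ctnna3 at 425 and 448 in KO oligodendrocytes against 1149 and 1248 in the controls.

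The remaining large increases were at genes with few or no UMIs in the controls. She, an adapter protein with an SH2 domain (chr3:89831370-89858834, plus strand), had 20 and 30 UMIs in KO 60 and KO 73 and 0 in both controls, at least 13.8-fold (adjusted p 4.06e-05). Gm13251 had 10 and 12 UMIs against 0 and 0, at least 6.05-fold (adjusted p 0.00119). It lies on chromosome 4, and reads shared with similar genes there were not examined. Tcfl5, a basic helix-loop-helix factor known from the testis, had 15 and 17 UMIs in the KO animals and 1 and 0 in the controls, a ratio of 55.6 with a counting interval of 9.28 to 2262. Pcdha1, a clustered protocadherin, had 16 and 14 UMIs against 0 and 1, a ratio of 52.1 with an interval of 8.66 to 2125. The other 57 clustered protocadherin genes in the matrix had 0 UMIs in all 4 animals, and since genes of these clusters overlap, which of them the Pcdha1 reads come from is uncertain. These 4 genes separated the groups, on small counts.

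Ky, which encodes a muscle protein with a transglutaminase-like domain, had 65 and 24 UMIs in KO 60 and KO 73 and 4 and 1 in the controls (log2 fold change 4.86 ± 0.57). 2410018L13Rik had 17 and 35 against 2 and 1, and Gm20711 had 23 and 13 against 0 and 2. Gm42950, a long non-coding RNA gene, had 142 and 132 UMIs against 14 and 4 (4.71 ± 0.29, adjusted p 5.25e-09) and was the best covered of this group. Gm30667 had 29 and 18 UMIs against 3 and 0, Draxin, an axon guidance protein, 20 and 11 against 2 and 1, and Bglap3, of the osteocalcin family, 10 and 20 against 2 and 1. Pcdha1, Gm20711 and Gm30667 were no longer called without KO 60, with adjusted p of 0.102, 0.195 and 0.0611. The other genes of the 15 largest increases were called in each alternative that gave them a value.

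Many of these genes also rose elsewhere in the Emx1 lineage. 2410018L13Rik rose in astrocytes (log2 fold change 5.03), progenitors (4.07) and excitatory neurons (3.30). She rose in astrocytes and excitatory neurons, and Ky rose in astrocytes (2.10, adjusted p 0.00165), where it stood at 119 and 102 CPM in the KO animals and at 22.8 and 29.1 in the controls. Tcfl5, Pcdha1, Gm20711 and Draxin rose in excitatory neurons, by 4.04, 4.15, 4.85 and 4.81.

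Other genes differed in their KO effect between oligodendrocytes and related classes. This was tested as the interaction of class and genotype with the animal as a block. Against astrocytes 10 of 11528 genes had a higher effect in oligodendrocytes (0.0867%) and 2 a lower one (0.0173%). Against progenitors 22 of 10011 were higher (0.22%) and 6 lower (0.0599%). Against microglia 40 of 10301 were higher (0.388%) and 7 lower (0.068%). The named genes among them are described next.

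Slc44a5, a choline transporter-like protein that the study had named from these nuclei (chr3:153973436-154271722, plus strand), had 132 and 141 UMIs in KO 60 and KO 73 and 36 and 10 in control 64 and control 65. Its level was 150 and 168 CPM in KO oligodendrocytes and 18.6 and 8.60 in the controls. The log2 fold change was 3.39 ± 0.27 (adjusted p 2.78e-07), called under all 11 alternatives. In progenitors Slc44a5 stood at 126 and 72.5 CPM in the KO animals and 124 and 129 in the controls. Both KO oligodendrocyte values lay above all of these progenitor values. The effect differed between the 2 classes by 3.82 ± 0.35 on the log2 scale (adjusted p 1.19e-11). In inhibitory neurons it was 185 and 139 against 237 and 215, and in astrocytes all 4 animals were at or below 12.9.

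Slc15a2, the peptide transporter PEPT2, had 201 and 95 UMIs in KO 60 and KO 73 and 59 and 26 in the controls (log2 fold change 2.604 ± 0.29, adjusted p 2.28e-05). KO 60 held about 2 times the level of KO 73, at 228 against 113 CPM. KO 60 was also apart in classes that keep Trim28: it stood at 29.2 CPM in inhibitory neurons and 92.8 in microglia, where the other 3 animals were between 1.30 and 12.9. Astrocytes, the class with the highest control level, held 349 and 264 CPM against 243 and 190. Slc15a2 was also called in excitatory neurons (2.72, adjusted p 0.0387), had a log2 fold change of 1.53 in progenitors (adjusted p 0.155), and its effect was not called as different from that in progenitors or microglia. The part of free RNA in the oligodendrocyte value was not tested. Slc15a2 was called without KO 60 as well.

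Gm42950 stood at 161 and 157 CPM in KO oligodendrocytes and at 7.22 and 3.44 in the controls. In inhibitory neurons it had 245 and 246 UMIs in KO 60 and KO 73 and 215 and 45 in control 64 and control 65, so control 64 was close to the KO animals there. It rose in excitatory neurons (1.21, adjusted p 0.0106). The effect exceeded that in astrocytes by 3.40 ± 0.45 (adjusted p 0.0102) and was not called as different from that in progenitors or microglia (adjusted p 0.783 and 0.248). Adipor2, a receptor for adiponectin, had 637 and 645 CPM in the KO animals against 198 and 440, a log2 fold change of 0.99 ± 0.23 (adjusted p 0.0205). The 2 controls differed by more than 2 times, and the call was lost with DESeq2, without KO 60 and within the limit of 3 median absolute deviations.

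Among genes that fell, 9330111N05Rik, a long non-coding RNA gene on chromosome 13, moved most on a well-covered gene. It had 38 and 14 UMIs in KO 60 and KO 73 and 576 and 258 in control 64 and control 65. That was 43.2 and 16.6 CPM against 297 and 222, and the groups were far apart. The log2 fold change was -3.16 ± 0.28 (adjusted p 1.27e-06), called under all 11 alternatives. In the other 5 classes it stood between 4.65 and 24.98 CPM in every animal, so KO oligodendrocytes were near the level of the other classes. The effect in oligodendrocytes minus that in astrocytes was -2.55, and minus that in progenitors -3.29, on the log2 scale. In progenitors alone the gene had too few UMIs to be tested.

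Ctnna3, alpha-T-catenin of cell junctions (chr10:63430098-65003667, plus strand), had 374 and 377 UMIs in the KO animals and 2227 and 1451 in the controls. At 425 and 448 CPM against 1149 and 1248, each group was close within itself. The log2 fold change was -1.50 ± 0.14 (adjusted p 1.49e-06). In progenitors Ctnna3 stood at 436 and 369 against 364 and 245, and the effects differed by -1.81 ± 0.23 (adjusted p 5.72e-07). Magi2, a scaffold of cell junctions, fell by 0.67 ± 0.11, Lrp1b, of the LDL receptor family, by 0.60 ± 0.11 and Cdh10, a cadherin, by 0.88 ± 0.14 on the log2 scale, with Lrp1b not called without KO 60 or without KO 73 and Cdh10 not called without KO 60.

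A set of less abundant genes fell by about 2 log2 units or more. Wnt5b, a Wnt ligand, had 4 and 3 UMIs in KO 60 and KO 73 and 53 and 30 in the controls (-2.73 ± 0.47). Bche, butyrylcholinesterase, had 6 and 12 against 93 and 49 (-2.15 ± 0.37, adjusted p 0.00173). Rab37, a small GTPase, had 2 and 6 against 49 and 31 (-2.50). All 3 were lower in both KO animals than in either control, but the call was lost for Wnt5b with DESeq2, for Bche without KO 60 and for Rab37 in both cases. 7630403G23Rik had 1 and 1 UMIs against 34 and 20, which is 15.6-fold lower with a counting interval of 4.10 to 132, and it too was not called with DESeq2 or without KO 60.

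Trim36, a ubiquitin ligase of the tripartite motif family, had 23 and 21 UMIs in the KO animals and 186 and 110 in the controls (-1.94 ± 0.24, adjusted p 8.31e-05). Mboat1, which remodels phospholipids, had 23 and 32 against 204 and 151 (-1.91 ± 0.24), and Cyp2j12, a cytochrome P450, had 31 and 21 against 203 and 95 (-1.69 ± 0.26). Their standard errors were smaller than those of Wnt5b, Bche and Rab37. Trim36, Mboat1 and Cyp2j12 were called under all 11 alternatives, as was Gm816 with 16 and 11 against 137 and 111. Ccnd3, cyclin D3 of the G1 phase, had 10 and 5 UMIs against 73 and 32 (-1.97 ± 0.41, adjusted p 0.00939) and was not called with DESeq2 or without KO 73. In microglia Ccnd3 stood at 806 and 933 CPM in the KO animals and at 450 and 403 in the controls, and the effects differed by -2.99 ± 0.41 (adjusted p 3.44e-05). Itih3, Piezo2 and Efcab5, with 36 to 49 UMIs in control 64, were called in 4 of 9, 4 of 9 and 3 of 10 alternatives.

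Few genes of the mature cell were called. The counts of this and the next lists stand beside 1.79% higher and 1.15% lower over all genes tested, and in a short list 1 or 2 calls are little to go by. Of the 15 markers that the rule did not use, 1 was higher and 0 were lower, with a median log2 fold change of -0.09, against -0.002 over all genes tested. The higher one was Cnp, an enzyme of the myelin sheath, with 267 and 229 UMIs in KO 60 and KO 73 and 375 and 183 in the controls (0.66 ± 0.17, adjusted p 0.0413), called in 5 of 11 alternatives. Of 25 tested genes for myelin structure and lipid assembly, Cnp was again the only one called, and the median was -0.05. Of 15 transcription factors of the lineage, such as Olig2, Myrf and Zeb2, edgeR and DESeq2 called 0 in either direction, with 3 higher and 1 lower at an unadjusted p under 0.05 and a median of -0.15. Of the rule's own markers Prr5l was lower, by 0.59 ± 0.13, which is a description only because these genes chose the nuclei.

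State markers showed single genes. Of 13 tested genes of newly formed oligodendrocytes, Enpp6, a phosphodiesterase of choline lipids, fell, with 52 and 78 UMIs in the KO animals and 281 and 146 in the controls (-0.89 ± 0.22, adjusted p 0.0308). It was called in 7 of 11 alternatives, and the median of the list was 0.19. Of 12 tested genes of mature states, Fth1 was higher and Il33 was lower, with a median of 0.02. Il33, an alarmin cytokine that oligodendrocytes keep in the nucleus, had 186 and 151 UMIs in KO 60 and KO 73 and 762 and 395 in the controls. Its level was 211 and 180 CPM against 393 and 340, without overlap. The log2 fold change was -0.96 ± 0.17 (adjusted p 0.00201), called under all 11 alternatives. In astrocytes Il33 stood at 64.6 and 71.9 against 67.1 and 77.5, a log2 fold change of -0.08, but the difference between the classes was not called (adjusted p 0.331).

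Of 25 tested genes of cholesterol and fatty acid synthesis, 0 were higher and 1 was lower, with a median of -0.08. That one was Srebf1, the transcription factor of fatty acid synthesis, with 12 and 19 UMIs in the KO animals and 100 and 59 in the controls (-1.55 ± 0.31, adjusted p 0.00723). It was not called with DESeq2 or without KO 60. Among 8 tested genes of iron storage and transport 2 were higher, and the median was 0.22. Heph, hephaestin, which oxidises iron for export, had 49 and 48 UMIs against 24 and 12, or 55.7 and 57.1 CPM against 12.4 and 10.3. The groups were apart, and the log2 fold change was 2.23 ± 0.31 (adjusted p 0.000249), called under all 11 alternatives. Heph in astrocytes was 24.6 and 24.7 against 21.4 and 29.1, and the difference between the classes was not called (adjusted p 0.0603). Fth1, the heavy chain of ferritin, had 1311 and 947 UMIs against 1832 and 734 (0.67 ± 0.18, adjusted p 0.0446) and was called in 7 of 11 alternatives. Its log2 fold change lay between 0.48 in microglia and 1.06 in progenitors in the other classes.

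Of 8 tested genes of reactive oligodendrocytes, C4b was higher and Il33 was lower, and the median was 0.58. C4b, a complement component, had 14 and 23 UMIs against 8 and 9 (1.88 ± 0.48, adjusted p 0.0361) and was called in 5 of 10 alternatives. Of 5 tested interferon-stimulated genes edgeR and DESeq2 called 0, with 0 at an unadjusted p under 0.05, and 24 more of that list of 29 had too few UMIs to test. Of 15 tested Trim28 partners, such as Setdb1 and the heterochromatin proteins, edgeR and DESeq2 called 0, with 0 at an unadjusted p under 0.05. Of 21 tested imprinted genes Meg3 was higher and Plagl1, a zinc finger factor, was lower, with 13 and 11 UMIs against 70 and 44 for Plagl1 (-1.45, adjusted p 0.0216). Meg3, a non-coding RNA abundant in neurons, turned to a log2 value of -0.11 in members with no UMI of another class's rule markers.

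The largest group of genes that rose together was that of cytosolic ribosomal proteins. Of 70 tested, 38 were higher and 0 lower, and the median log2 fold change was 1.15 with a range of -0.26 to 2.37. In 66 of the 70 both KO animals lay above both controls, a pattern found in 22.2% of all genes. Rpl21 of the large subunit had 117 and 113 UMIs in KO 60 and KO 73 and 61 and 36 in the controls (2.04 ± 0.21, adjusted p 1.16e-05). Rpl29, also of the large subunit, had 88 and 59 against 49 and 18 (1.95 ± 0.28, adjusted p 0.000402). Together these genes took 0.458% and 0.394% of UMIs in the KO animals and 0.190% and 0.155% in the controls.

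The same group was higher in classes that keep Trim28, by smaller amounts. In microglia it took 0.373% and 0.329% against 0.285% and 0.202%, with a median log2 fold change of 0.45, and in inhibitory neurons the median was 0.49. In astrocytes it took 0.185% and 0.177% against 0.141% and 0.114%, and in progenitors 0.174% and 0.198% against 0.134% and 0.107%. In the tests of class by genotype, edgeR called 0 ribosomal protein genes against astrocytes, 2 against progenitors, among them Rpl34, and 1 against microglia. Rpl34 had too few UMIs to be tested in progenitors alone. Without KO 60, 15 of the list were called, and DESeq2 called 21. The part of library quality in these values was not tested. Its genes have many processed pseudogenes, and 4 ribosomal protein pseudogenes were among the 175 higher genes. Without ribosomal and mitochondrial genes 131 of the 175 remained.

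Mitochondrially encoded transcripts and heat shock genes showed the same kind of pattern. Of 11 tested mitochondrial genes 6 were higher and 0 lower (median 0.82), such as mt-Cytb with 402 and 317 UMIs against 360 and 248. They took 0.294% and 0.241% of UMIs in KO oligodendrocytes and 0.126% and 0.161% in the controls. In microglia they took 0.218% and 0.214% against 0.124% and 0.100%, with a median log2 fold change of 0.82 as well. No mitochondrial gene was called without KO 60 or in members with no UMI of another class's rule markers. Of 68 tested nuclear genes of oxidative phosphorylation edgeR and DESeq2 called 0, with 14 higher and 0 lower at an unadjusted p under 0.05 and a median of 0.32.

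Of 9 tested heat shock and stress genes 2 were higher: the chaperones Hsp90ab1, with 196 and 208 UMIs against 243 and 126 (0.95 ± 0.17, adjusted p 0.00322), and Hspa8, with 155 and 131 against 187 and 100 (0.81). The group took 0.0765% and 0.0821% of UMIs in KO oligodendrocytes against 0.0495% and 0.0403%, and in microglia 0.0922% and 0.0998% against 0.0542% and 0.0434%. Of 7 tested immediate early genes Egr1 was higher (27 and 29 UMIs against 5 and 19), called in 5 of 9 alternatives. The part of nuclei handling in these groups was not tested.

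**Figure D4:**
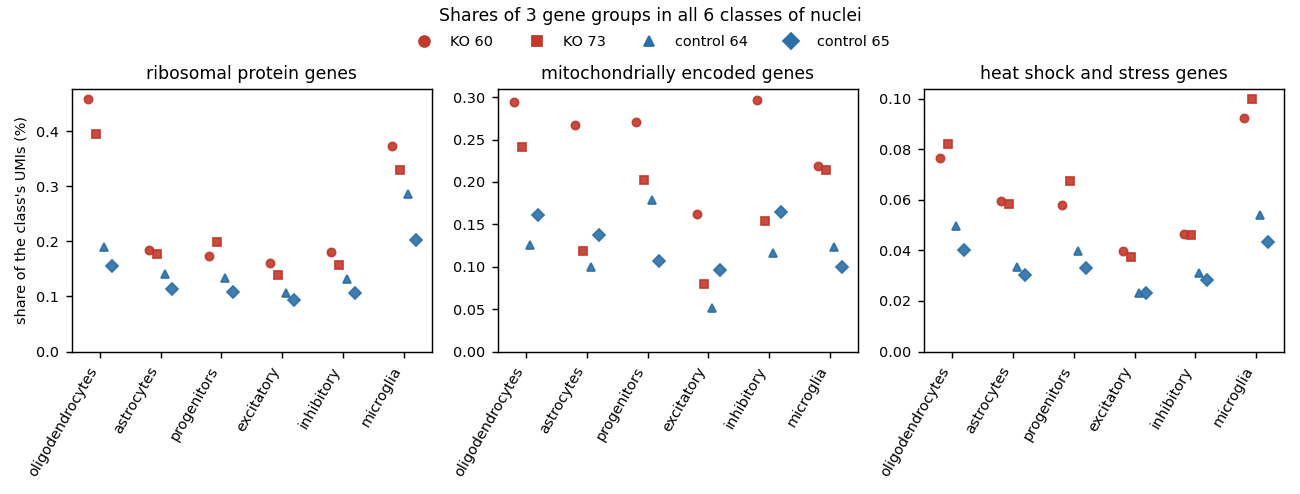
Share of a class's UMIs (%, y axis) taken by cytosolic ribosomal protein genes, mitochondrially encoded genes and heat shock genes (1 panel each) in the 6 classes of nuclei (x axis), 1 point per animal. The ribosomal share was 0.458% and 0.394% in KO oligodendrocytes against 0.190% and 0.155% in the controls, and it was also higher in KO microglia, at 0.373% and 0.329% against 0.285% and 0.202%.

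Few markers of the other cell types were called in the members. Pan-neuronal genes took the most UMIs of these lists, 1.86% and 1.71% in KO 60 and KO 73 and 1.62% and 1.90% in the controls, which is more than the 1.28% and 1.36% against 1.37% and 1.24% of the 15 oligodendrocyte markers that the rule did not use. Inhibitory neuron genes took 0.204% and 0.219% against 0.199% and 0.202%. Excitatory neuron genes took 0.114% and 0.0942% of UMIs in KO 60 and KO 73 and 0.0762% and 0.0900% in the controls, and edgeR and DESeq2 called 0 of 9, with 2 higher at an unadjusted p under 0.05. Astrocyte genes took 0.0529% and 0.0425% against 0.0388% and 0.0477%, with 0 of 6 called by either tool and 2 higher and 1 lower at an unadjusted p under 0.05. Microglia genes took 0.0208% and 0.0168% against 0.0288% and 0.0169%, with 0 of 8 called by either tool and 0 at an unadjusted p under 0.05. The sums overlapped between the groups for pan-neuronal, astrocyte and microglia genes but not for excitatory neuron, inhibitory neuron or progenitor genes. Progenitor genes took 0.0416% and 0.0561% against 0.0396% and 0.0360%, and 0 of 8 were called by either tool, with 2 higher at an unadjusted p under 0.05. Of 20 pan-neuronal genes Meg3 was higher and Lrp1b and Cdh10 were lower, and of 7 inhibitory neuron genes Nxph1 was lower (8 and 31 UMIs against 98 and 91). Of the vascular list 1 of 11 genes had enough UMIs to test, and neither tool called it (0 at an unadjusted p under 0.05). No marker of excitatory neurons, inhibitory neurons, astrocytes, progenitors or microglia on these lists was at 0 in all animals, and their part in the called genes was not tested.

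The study named 17 oligodendrocyte genes from these animals, and these are no independent evidence of a direction. By sums per animal 6 were higher, 5 were lower and 6 were not called. Nrg3, a neuregulin of synapses, had 1019 and 763 UMIs in KO 60 and KO 73 and 2207 and 1639 in the controls, which gave -0.35 on the log2 scale (adjusted p 0.266). Among the higher genes were Mnd1, Slc44a5, Slc15a2, Adipor2 and Fth1, and the lower genes were 9330111N05Rik, Ctnna3, Cdh10, Magi2 and Lrp1b. DESeq2 called 4 of the higher and all 5 of the lower genes.

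KO oligodendrocytes with and without a UMI of Fbxw19, Fbxw16 or Mnd1 were set side by side as a description, with genes followed that were chosen after their values were seen. Nuclei with such a UMI were no deeper: their median was 1969.5 UMIs against 2109 without in KO 60 and 2125 against 2458 in KO 73. Their rule markers took 0.609% of UMIs against 0.561% in KO 60 and 0.740% against 0.531% in KO 73. The nuclei without a UMI of the 3 genes lay closer to the controls in several genes. Il33 stood at 137 CPM with and 339 without in KO 60, and at 62.9 and 311 in KO 73, where the controls had 393 and 340. Slc44a5 stood at 209 and 49.2 in KO 60 and at 227 and 101 in KO 73, where the controls had 18.6 and 8.60.

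Ctnna3 and the ribosomal genes showed the same order but stayed away from the controls in both groups of nuclei. Ctnna3 stood at 353 with and 548 without in KO 60 and at 333 and 578 in KO 73, and both groups of nuclei were below the controls at 1149 and 1248. The ribosomal share was 0.550% with and 0.299% without in KO 60 and 0.478% and 0.301% in KO 73, against 0.190% and 0.155% in the controls. 9330111N05Rik was low in both groups, at 48.6 and 33.9 in KO 60 and 20.2 and 12.6 in KO 73, against 297 and 222 in the controls. Adipor2 was at 629 and 652 in KO 60 and 726 and 553 in KO 73. Trim28 had 4 UMIs in nuclei with and 7 in nuclei without in KO 60, and 2 and 6 in KO 73, too few to compare. Detection of these 3 genes is incomplete at this depth, so nuclei without a UMI include nuclei that made the transcript.

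Whole cortex RNA gave a second readout, mixed over all cells. In bulk samples, fewer cells of a type and less RNA per cell cannot be told apart. Over 16271 genes 142 were higher (0.873%) and 81 lower (0.498%) in 3 KO against 3 control animals. Of the 175 genes that rose in oligodendrocytes 151 were tested, with 22 higher, 2 lower and a median of 0.14. Of the 112 that fell 105 were tested, with 0 higher, 7 lower and a median of -0.12.

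Of the 15 genes with the largest increases in nuclei, the 3 largest were called in whole cortex as well, and KO 76, which was not among the nuclei, held them too. Fbxw19 had 131, 92 and 104 reads in KO 60, 73 and 76 and 0 in controls 64, 65 and 77, at least 47.2-fold (adjusted p 1.34e-05). Fbxw16 had 59, 48 and 32 against 0, 0 and 0, at least 19.3-fold. Mnd1 had 246, 179 and 203 against 21, 17 and 14 (log2 fold change 4.08 ± 0.25). No KO library overlapped a control in these 3 genes. Tcfl5 (4.29), Gm20711 (4.51), 2410018L13Rik (4.08), Pcdha1 (3.55), Gm13251 (3.41), Bglap3 (2.65) and Ky (1.75) were higher as well. She was not, with 82, 111 and 66 reads in the KO animals and 109, 79 and 126 in the controls. Gm42493, Gm42950, Gm30667 and Draxin had too few reads to test. Gm42950 had 0, 0 and 0 reads in the KO animals and 3, 0 and 0 in the controls.

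Il33, Bche and C4b moved the same way in nuclei and whole cortex, and Heph the opposite way. Heph fell in whole cortex, with 64, 64 and 48 reads against 174, 129 and 142 (-0.87 ± 0.15, adjusted p 0.0129), opposite to its rise in oligodendrocyte nuclei. Il33 fell in both, with 456 to 816 reads in the KO libraries against 1225 to 1861 in the controls (-0.69 ± 0.10, adjusted p 0.00278), and Bche also fell (-0.93, adjusted p 0.0458). The share of oligodendrocytes was lower in the KO nuclei, and its part in these 3 bulk values was not tested. C4b rose, with 94, 119 and 75 reads against 76, 52 and 54 (1.13 ± 0.16, adjusted p 0.00305). Slc44a5 (0.45, adjusted p 0.351), Slc15a2 (0.12), Adipor2 (0.02), Fth1 (-0.01) and Ctnna3 (-0.56, adjusted p 0.705) were not called. The ribosomal protein genes called in nuclei were not called in whole cortex where tested. Their log2 fold changes ran from -0.02 (Rpl28) to 0.32 (Rpl36), and the smallest adjusted p in edgeR was 0.258 (Rps16). For Rpl21, Rps16 and Rpl27a all KO libraries lay above all controls, and the other tested ones overlapped. The mitochondrial genes called in nuclei, Hspa8 (0.04) and Hsp90ab1 (0.11) were not called either.

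**Figure D5:**
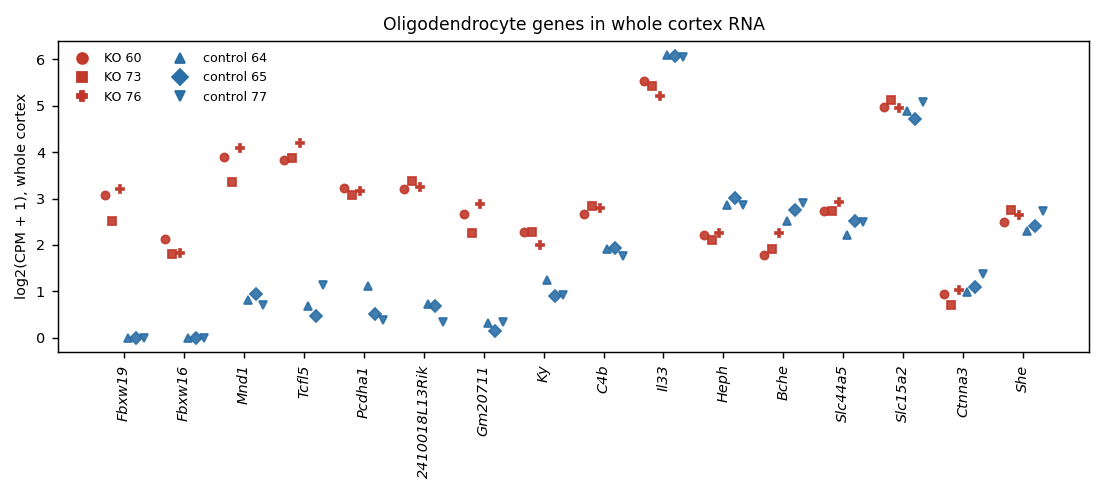
Log2(CPM + 1) in whole cortex RNA of 16 genes called in oligodendrocyte nuclei (x axis), 1 point per animal, with animals 76 and 77 not among the nuclei. Fbxw19 had 131, 92 and 104 reads in the KO libraries and 0 in all 3 controls, and Heph had 64, 64 and 48 against 174, 129 and 142.

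Transposable elements near the named genes were examined in the same cortex libraries, since Trim28 acts on them. Of 13997 individual copies 347 were higher (2.48%) and 35 lower (0.25%). Of 60 copies inside or within 10 kb of a named gene 12 were higher and 2 lower. Inside Mnd1 an IAPEz-int copy, the internal part of an intracisternal A particle (chr3:84142796-84149191, minus strand, 6396 bases, starting 6595 bases from the gene's start), had 80, 45 and 72 reads in KO 60, 73 and 76 and 0, 1 and 0 in controls 64, 65 and 77. It lies on the same strand as the gene. An L1Md_F2 copy next to Fbxw19 (chr9:109505043-109506600, 1558 bases) had 20, 22 and 20 reads against 0, 0 and 0.

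The other copies that rose lay at Ky, Pcdha1, 2410018L13Rik, Gm20711, Bglap3 and Gm13251. An L1M5 copy beside Ky had 17, 18 and 12 reads against 0, 0 and 0, and an RLTR10D copy in Bglap3 had 103, 21 and 51 against 7, 3 and 1. An MLT2B1 copy in Gm20711 had 48, 41 and 51 reads against 5, 1 and 2, and 4 copies in 2410018L13Rik rose. The genes and the copies inside them share reads where the counting overlaps, so a copy and its gene are not independent. The copies that fell were B2_Mm1a elements in Trim28 (0, 0 and 0 reads against 20, 16 and 23) and near Rpl28 (0, 0 and 0 against 41, 32 and 24). Both lie on chromosome 7, as does the floxed Trim28 allele, of which KO animals carry 2 and controls 1. Whether the chromosome with that allele differs at these copies was not tested.

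Positions of ERVK copies, the class of endogenous retrovirus that includes the IAP family, were described with a name pattern chosen after the values were seen. Such a copy lay within 10 kb of the start in 34 of 168 genes that rose (20.2%), in 8 of 111 that fell (7.21%) and in 1221 of 9750 tested genes with a position (12.5%). For long terminal repeat copies of any class these shares were 92.3%, 97.3% and 93.8%, with no excess among the genes that rose. Among the 15 largest increases an ERVK copy lay that near in 9 and among the 15 largest decreases in 1. The 9 include Fbxw16 and Gm42493, which overlap and have an RLTR13E at 1181 and 1676 bases. The start lay inside an ERVK copy in 3 of the genes that rose (1.79%) and in 15 of all tested genes (0.154%). Among them were Gm20711 in RLTR10C and Bglap3 in RLTR10D. The nearest copy to Fbxw16 was an RLTR13E at 1181 bases, to Mnd1 an IAPLTR1_Mm at 6181 bases and to Slc44a5 an RLTR10B2 at 8386 bases. For Fbxw19, the largest increase, the nearest copy was an ERVB4_1B-I_MM-int at 11215 bases, outside the 10 kb. The nearest copies to Gm13251, Gm42950, Ky, She and Draxin also lay outside it, at 11827, 15112, 17919, 30439 and 36353 bases. The genome is rich in such copies, and these counts carry no test.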

How the data were processed

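Nuclei were counted by the authors with Cell Ranger 3.0 against a pre-mRNA reference of mm10, and the deposited matrices hold UMI counts per gene and nucleus. Bulk cortex and culture reads were aligned by the authors with STAR 2.6.0 and counted with Subread 1.6.3 by strand on GENCODE vM19, and the deposited tables hold read counts per gene and per transposable element copy. Whether nuclei counting used strand is not given in the sources used here. A further 42 sample columns of other experiments were not used.

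All barcodes in the matrices were kept. Members were chosen by the marker sums and their counts summed per animal. Sums were tested with edgeR 4.0.16 (filterByExpr, TMM, quasi-likelihood, Benjamini-Hochberg, called at adjusted p under 0.05) in R 4.3.3, with DESeq2 1.42.0 as an alternative, and class differences with animal as a block. Controls were littermates, as the study describes them, but the labels do not say which animals shared a litter, and p-values measure only the spread between these animals. Scripts were tested on simulated data. A fold against 0 used a floor of 3 counts per library on TMM-adjusted library sizes, and intervals and floors cover counting error only. Cortex libraries held 16748967 to 25345083 counted reads. Level and share computations used Python 3.11.15 with scipy 1.17.1.

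Members and the 26 gene lists were chosen with earlier results of these data known. The genes named were Trim28, the rule markers, Fth1, Nrg3, the 15 largest called changes each way and called members of the lists, which include 17 genes the study named. Values of some of these genes are not reported here.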

Additional observations from a re-analysis of the deposited data

Results flagged for a closer look

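The KO effect in oligodendrocytes differed from that in another class, by the interaction test in edgeR with adjusted p-values, for a small number of named genes. Against astrocytes the difference in log2 fold change was 3.40 ± 0.45 for Gm42950 (adjusted p 0.0102), 2.12 ± 0.27 for Slc15a2 (0.0102) and -2.55 ± 0.41 for 9330111N05Rik (0.0401). The first 2 were called in 6 of 6 alternatives and the last in 5. Slc15a2 was also high in inhibitory neurons and microglia of KO 60.

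Against progenitors the difference was 3.82 ± 0.35 for Slc44a5 (adjusted p 1.19e-11) and -1.81 ± 0.23 for Ctnna3 (5.72e-07), both called in 6 of 6 alternatives. It was -3.56 ± 0.68 for Ccnd3 (0.00366) and 3.23 ± 0.68 for Rpl34 (0.0104), called in 5 of 6. For 9330111N05Rik it was -3.29 ± 0.65 (0.00457), called in 4. In progenitors alone Rpl34 and 9330111N05Rik had too few UMIs to be tested. Ccnd3 had opposite orders in the 2 classes, but it was not called in progenitors alone (adjusted p 0.2595 in edgeR). It stood at 11.4 and 5.95 CPM in KO oligodendrocytes against 37.7 and 27.5 in the controls. In progenitors it stood at 28.1 and 31.7 against 8.51 and 10.8, among only 371437 to 587868 UMIs per animal.

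Against microglia, which keep Trim28, the difference was -2.99 ± 0.41 for Ccnd3 (adjusted p 3.44e-05) and -2.49 ± 0.40 for Trim36 (0.000622), both called in 6 of 6 alternatives. It was 4.49 ± 0.92 for Slc44a5 (0.0100), called in 5, and 6.66 ± 1.42 for Gm13251 (0.0157) and -3.08 ± 0.69 for Mboat1 (0.0225), called in 3. Fbxw19, Fbxw16, She and Gm42493 could not be compared this way because both classes were at 0 in both controls. Gm13251 had 10 and 12 UMIs in KO oligodendrocytes and 0 in both controls, so these counts do not set the size of its difference. In microglia alone Gm13251, Slc44a5 and Mboat1 had too few UMIs to be tested.

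Among the 6 NPC KO libraries the highest Fbxw16 value, 10.3 CPM, lay apart from the rest, whose median with it included was 4.78. Chance gives such a gap in about 1 of 20 groups.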

How the results depend on the processing

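The 287 genes called in oligodendrocyte nuclei (175 higher, 112 lower) became 113 with DESeq2, 449 with no filter on low counts, 156 in nuclei with no UMI of another class's rule markers and 130 after thinning. Leaving out an animal gave 89 (without KO 60) to 706 (without control 64), with 509 without control 65, and the lone animal was then assumed to vary like the other group. The 12 differences from astrocytes became 19 with RLE factors and 121 with no filter, and 14 to 158 with an animal left out. The 28 differences from progenitors ranged from 17 to 53, and the 47 from microglia from 12 to 138, with an animal left out. Those from microglia became 83 with RLE factors and 107 with no filter. In whole cortex 223 genes became 621 with no filter and 104 to 387 with an animal left out, and 382 transposable element copies became 979 with a minimum of 10 reads. For these counts the cause was not tested. No paired analysis was possible because the groups compared share no replicate numbers.

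Of 100 named genes 95 were called, and 38 of these were called under each alternative that gave them a value. Calls were lost for 38 genes with DESeq2, 52 without KO 60, 15 without KO 73, 5 without control 64, 3 without control 65, 26 within 3 median absolute deviations, 24 without other marker UMIs and 19 after thinning, and for 0 with RLE factors, no filter or a marker sum of at least 5. Signs turned for Mog, which was not called (-0.10, with 0.012 without other marker UMIs, and -0.35 to 0.18 with an animal left out), and for Meg3 (-0.11 without other marker UMIs). The share difference ranged from -9.63 to -4.19 points with an animal left out. Depth limits genes with few UMIs, such as Trim28.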

Other observations

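Several called genes lay within 500 kb of another called gene, a window chosen after the values were seen. On chromosome 11 the lipid transporter genes Abca8a and Abca8b had log2 fold changes of -1.48 and -1.11. On chromosome 17 Ccnd3 (-1.97) lay near Tfeb (-1.05), a transcription factor of lysosome genes. Neighbours could also move apart: St6galnac3 (-0.61) lay near Slc44a5 (3.39) on chromosome 3, and Wnt5b (-2.73) near Adipor2 (0.99) on chromosome 6. On chromosome 4 Gm26573, Gm26624, C230088H06Rik and Gm13152 rose by 2.36, 3.06, 2.33 and 2.82, and reads shared between similar genes there were not examined. These genes, apart from Ccnd3, Slc44a5, Wnt5b and Adipor2, were chosen after their values were seen.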
